A study of Homo sapiens with 9 samples.

Results

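The complement system, a cascade of blood and cell-surface proteins that marks and lyses cells, was followed through 8 genes in WiDr cells in which the long noncoding RNA LIMp27 was targeted by siRNA. The genes were chosen by name, with their measured values already known. They are the central component C3, the alternative-pathway enzyme CFB, the soluble regulators CFI, C4BPA and C4BPB, and the membrane regulators CD55, CD46 and CD59. Of these 8 genes, 7 were among the 25159 genes listed in the read-count tables, CFI had no row, and 4 (C4BPB, CD55, CD46 and CD59) had enough reads to enter the fits. WiDr is an established human colon adenocarcinoma line that carries mutant p53. Its cells received 100 nM of a control siRNA (siCtrl), LIMp27 siRNA1 or LIMp27 siRNA2 for 24 h, with no other agent, and 3 RNA-seq libraries were made per siRNA, 9 in all. The study describes the libraries of a group as biological repeats, and the labels do not name the culture each came from, so p-values measure the spread between these libraries. All groups are transfected cultures of 1 cell line.

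Complement is started by antibody, by lectins or by slow spontaneous turnover, and all routes meet at the cleavage of C3 by enzyme complexes called convertases. Host cells protect themselves at that step and at the last one. CD55 speeds the decay of the convertases, CD46 serves the protease CFI as a cofactor in cutting C3b and C4b, and CD59 blocks the final membrane attack complex. CD55 and CD59 are held in the outer membrane by a glycosylphosphatidylinositol (GPI) lipid anchor, whereas CD46 spans the membrane. C4BPB encodes the beta chain of C4b-binding protein, a secreted cofactor for CFI whose alpha chains, encoded by C4BPA, hold the C4b-binding sites. Carcinoma cells, those of the colon among them, are known to carry the membrane regulators on their surface. What follows concerns transcripts, and neither protein nor complement attack was measured.

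Between 14361629 and 21524623 reads per library were assigned to genes. LIMp27 itself (LINC01356) had 0, 0 and 2 reads in the siCtrl libraries, 0, 0 and 0 with LIMp27 siRNA1 and 0, 2 and 1 with LIMp27 siRNA2, so its knockdown could not be checked in these reads. For the WiDr cells used for RNA-seq, the paper reports the knockdown by qPCR. The colon epithelial label was met by 8 of 10 markers, EPCAM and the keratins KRT8 and KRT18 among them, while CDX2 had 10 to 40 reads per library and CDX1 had no row. The summed level of the 9 listed markers was 15556 to 16533 counts-per-million (CPM) in siCtrl, 11171 to 11633 with LIMp27 siRNA1 and 9623 to 10701 with LIMp27 siRNA2. Most of this sum was KRT8 and KRT18, with means of 8982 and 4563 CPM in siCtrl, and the list did not move as 1, since EPCAM was higher with both siRNAs (0.17, edgeR adjusted p = 0.000892, and 0.13, adjusted p = 0.0205), as was VIL1 (0.14, adjusted p = 0.0123, and 0.79, adjusted p = 3.46e-13). The summed hepatocyte markers, from the main source of plasma complement, stayed between 0.338 and 0.899 CPM. Of the leukocyte markers, LYZ carried nearly all of a sum of 1919 to 1975 CPM in siCtrl, 1853 to 1949 with LIMp27 siRNA1 and 1237 to 1341 with LIMp27 siRNA2. The 2 listed endothelial markers summed to at most 0.253 CPM. The 3 listed fibroblast markers summed to 2.14 to 2.51 CPM in siCtrl, 2.17 to 3.85 with LIMp27 siRNA1 and 11.5 to 13.0 with LIMp27 siRNA2, where LUM rose (log2 fold change 2.80, SE 0.18, edgeR adjusted p = 5.08e-14). The part of these markers in the values of the complement genes was not tested.

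C4BPB, C4BPA, CD55 and CD46 lie in 1 stretch of the long arm of chromosome 1. In the order of the GRCh38 coordinates in the tables, C4BPB spans chr1:207088842-207099993, CD55 spans chr1:207321376-207386804 and CD46 spans chr1:207752057-207795513, all on the plus strand. C4BPA (chr1:207104262-207144972) lies between C4BPB and CD55, and CD59 is on the minus strand of chr11:33703010-33736491. Promoter sequences of 300 bases, from 250 bases before the start site to 50 after it, were found in the RefSeq table (GRCh38.p14) for 7 of the 8 genes. C4BPB has 3 entries there and CD46 has 2, and the entry nearest to the start of the gene was taken. The promoters of the 3 neighbours on chromosome 1 are shown because these genes share a locus and a family, whereas their differences from siCtrl were unequal and, for CD46, of opposite direction with the 2 siRNAs. They are printed on the plus strand, C4BPB at chr1:207088610-207088909, CD55 at chr1:207321428-207321727 and CD46 at chr1:207751804-207752103, and capitals mark 3 motifs on either strand. The first is the GC box, bound by factors of the SP1 type, with the letters GGGCGG. The second is the CCAAT box, and the last is the half-site of the cyclic AMP response element, TGACG.
C4BPB: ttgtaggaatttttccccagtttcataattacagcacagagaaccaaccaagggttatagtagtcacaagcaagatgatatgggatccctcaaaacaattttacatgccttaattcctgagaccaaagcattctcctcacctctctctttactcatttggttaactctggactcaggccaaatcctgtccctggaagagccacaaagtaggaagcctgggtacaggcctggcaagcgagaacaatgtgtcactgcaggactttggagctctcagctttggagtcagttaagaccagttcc
CD55: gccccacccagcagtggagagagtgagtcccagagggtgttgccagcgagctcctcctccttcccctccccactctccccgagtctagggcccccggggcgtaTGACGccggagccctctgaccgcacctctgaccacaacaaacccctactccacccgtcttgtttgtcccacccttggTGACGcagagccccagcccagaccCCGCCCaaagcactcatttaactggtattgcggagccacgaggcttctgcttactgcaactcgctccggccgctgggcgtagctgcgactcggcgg
CD46: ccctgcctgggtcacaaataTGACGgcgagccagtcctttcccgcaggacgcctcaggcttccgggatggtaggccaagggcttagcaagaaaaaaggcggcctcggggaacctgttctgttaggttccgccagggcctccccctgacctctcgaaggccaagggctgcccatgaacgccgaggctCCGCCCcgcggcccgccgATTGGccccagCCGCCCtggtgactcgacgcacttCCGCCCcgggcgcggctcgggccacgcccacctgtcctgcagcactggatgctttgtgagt

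The 3 promoters are unlike in base composition. That of C4BPB has a GC content of 45.3%, and 21.3% of the 35116 promoters in the RefSeq table are lower. It holds 1 CpG, and 3.96% of promoters hold fewer. CD55 has 65.0% GC and 19 CpG and CD46 has 67.3% GC and 25 CpG, as CD59 on chromosome 11 has 64.3% GC and 18 CpG. The CD55 window holds 1 GC box and 2 TGACG half-sites, and the CD46 window holds 3 GC boxes, 1 CCAAT box and 1 TGACG half-site. None of these, nor the TATA box TATAAA, is in the C4BPB window. The share of all promoters with a match on either strand is 45% for the GC box, 34.6% for the CCAAT box, 24.6% for TGACG and 11.5% for TATAAA. The annotated RefSeq start of CD55 lies inside the span that the tables give for the gene. Whether base composition or these motifs bear on the differences with the siRNAs was not tested.

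C4BPB was lower with both siRNAs, and with LIMp27 siRNA1 its difference was the largest of the 4 genes, while with LIMp27 siRNA2 it lay within error of that of CD55. Its transcript gave 941, 899 and 989 reads in siCtrl, 140, 166 and 181 with LIMp27 siRNA1, and 409, 317 and 369 with LIMp27 siRNA2. After scaling for depth and composition by TMM, these are 53.7, 55.0 and 55.6 CPM in siCtrl, 8.25, 8.64 and 8.18 with LIMp27 siRNA1, and 20.4, 20.0 and 25.0 with LIMp27 siRNA2. The groups did not overlap, and the libraries of LIMp27 siRNA1 were all below those of LIMp27 siRNA2. On the CPM scale C4BPB was 6.48-fold lower with LIMp27 siRNA1 (log2 fold change −2.70, SE 0.08) and 2.48-fold lower with LIMp27 siRNA2 (−1.31, SE 0.08). Set directly against each other, LIMp27 siRNA2 was above LIMp27 siRNA1 by 1.40 (SE 0.11) on the log2 scale. Because the genes were picked with these values known, their differences are given as a description and carry no p-value.

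Its partner chain was barely read. C4BPA gave 3, 3 and 0 reads in siCtrl, 0, 2 and 0 with LIMp27 siRNA1, and 3, 2 and 1 with LIMp27 siRNA2. The group sums were 6 reads (95% Poisson interval 2.20 to 13.1), 2 (0.242 to 7.22) and 6 (2.20 to 13.1), so no difference between the siRNAs was detectable. Per kilobase of transcript, in the deposited FPKM, C4BPA stood at 0.0962 ± 0.0835 (SD, n = 3) in siCtrl, where C4BPB stood at 51.4 ± 1.21. The transcript of the beta chain of C4b-binding protein was thus abundant in libraries in which that of the alpha chain was near the detection limit.

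CD55, the convertase decay factor, was lower with both siRNAs. Its reads were 7968, 7840 and 8746 in siCtrl, 2742, 3240 and 3533 with LIMp27 siRNA1, and 3885, 2769 and 3082 with LIMp27 siRNA2. In CPM these are 455, 480 and 492, then 162, 169 and 160, then 194, 175 and 208. Every siCtrl library was above every LIMp27 siRNA library, and the LIMp27 siRNA1 libraries lay below the LIMp27 siRNA2 libraries by a small margin. CD55 was 2.88-fold lower with LIMp27 siRNA1 (log2 fold change −1.53, SE 0.05) and 2.43-fold lower with LIMp27 siRNA2 (−1.28, SE 0.06), and the siRNAs differed by 0.25 (SE 0.06).

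CD46, the membrane cofactor, was lower with LIMp27 siRNA1 and slightly higher with LIMp27 siRNA2. It gave 3677, 3289 and 3549 reads in siCtrl, 2244, 2639 and 2863 with LIMp27 siRNA1, and 4560, 3350 and 3239 with LIMp27 siRNA2. The CPM values were 210, 201 and 199 in siCtrl, 132, 137 and 129 with LIMp27 siRNA1, and 228, 212 and 219 with LIMp27 siRNA2. All LIMp27 siRNA1 libraries were below siCtrl, and all LIMp27 siRNA2 libraries were above it, the nearest by 212 against 210 CPM. CD46 was 1.51-fold lower with LIMp27 siRNA1 (−0.60, SE 0.04), 0.13 higher on the log2 scale with LIMp27 siRNA2 (SE 0.05), and 0.74 higher with LIMp27 siRNA2 than with LIMp27 siRNA1 (SE 0.05). The 95% interval for LIMp27 siRNA2 against siCtrl, −0.01 to 0.28, includes no change. It takes its t quantile from the 6 libraries alone and is wider than edgeR's test, which also draws on other genes, would give. With library totals alone as the scale, without TMM, the difference between LIMp27 siRNA2 and siCtrl was 0.22.

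CD59, the inhibitor of the membrane attack complex, was lower by nearly the same amount with both siRNAs. Reads were 8308, 7595 and 8799 in siCtrl, 5243, 6048 and 7245 with LIMp27 siRNA1, and 6098, 4827 and 4737 with LIMp27 siRNA2. In CPM, siCtrl held 475, 465 and 495, LIMp27 siRNA1 held 309, 315 and 328, and LIMp27 siRNA2 held 304, 305 and 320. The LIMp27 siRNA groups overlapped each other and lay below siCtrl. CD59 was 1.49-fold lower with LIMp27 siRNA1 (−0.58, SE 0.04) and 1.52-fold lower with LIMp27 siRNA2 (−0.60, SE 0.05), with −0.02 (SE 0.05) between them. A same-strand transcript overlapping CD59, AL049629.2, had 0 to 11 reads per library, and the same-strand pseudogene CDCA4P4 inside CD46 had 0 to 3.

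**Figure D1:**
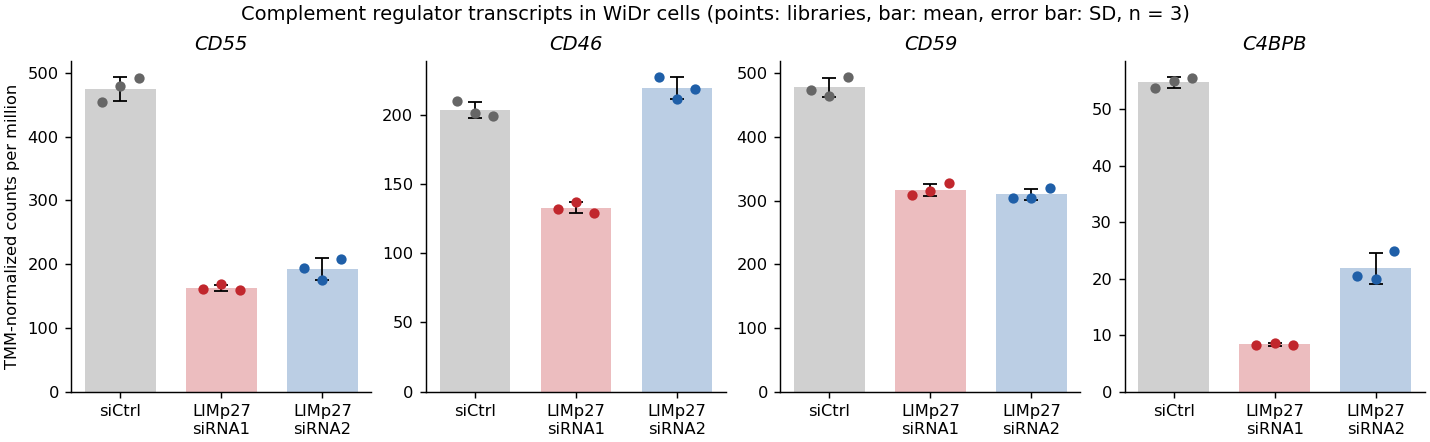
TMM-normalized CPM of CD55, CD46, CD59 and C4BPB by siRNA, each panel with its own axis from 0. Each point is a library, and each bar gives the mean with the SD of 3 libraries. C4BPB was 54.8 ± 0.946 CPM in siCtrl, 8.36 ± 0.247 with LIMp27 siRNA1 and 21.8 ± 2.74 with LIMp27 siRNA2, and CD46 is the gene whose LIMp27 siRNA2 libraries sit above siCtrl.

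Read together, with LIMp27 siRNA1 all 4 genes were lower and outside the siCtrl range, and with LIMp27 siRNA2 3 were lower and 1 was higher. These are contrasts that the choice of genes used, and non-overlap was common among all genes. With LIMp27 siRNA1, 59.8% of 14347 tested genes had library ranges outside those of siCtrl, with 31.9% of all tested genes on the lower side. With LIMp27 siRNA2 these shares were 61.2% and 32.5% of 14204 tested genes, with 28.6% on the higher side, and between the siRNAs 52.5% of 14415 genes did not overlap, against 3 of the 4 genes here. The median log2 fold change of the 4 genes was −1.06 with LIMp27 siRNA1 and −0.94 with LIMp27 siRNA2, beside 0.00 and 0.01 over all tested genes. Both LIMp27 siRNAs were set against the same 3 siCtrl libraries. Bulk RNA does not tell fewer transcripts per cell from a change in the make-up of the culture.

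Scaling moved all of these values together without turning one. Without TMM, the median log2 fold change of all genes was 0.09 with LIMp27 siRNA1 and 0.10 with LIMp27 siRNA2, and the 8 differences from siCtrl lay higher by about that much, from −2.60 for C4BPB to 0.22 for CD46. The share that were higher, among genes called at an edgeR adjusted p below 0.05, went from 48.3% to 62.2% with LIMp27 siRNA1 and from 48.9% to 59.7% with LIMp27 siRNA2. Ratios between genes within a library do not depend on this choice and are given next.

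Levels per length showed how the balance among the regulators stood in each group. In siCtrl, CD55 at 284 ± 12.9 FPKM and CD59 at 283 ± 9.51 FPKM (SD, n = 3) overlapped, followed by CD46 at 82.7 ± 1.75 and C4BPB at 51.4 ± 1.21. With LIMp27 siRNA1 the order was CD59 (203 ± 6.61 FPKM), CD55 (105 ± 3.09), CD46 (58.3 ± 1.77) and C4BPB (8.46 ± 0.257), with no overlap between neighbours. With LIMp27 siRNA2 the same order held, with CD59 at 198 ± 6.56 FPKM, CD55 at 124 ± 10.6, CD46 at 96.3 ± 2.74 and C4BPB at 22.1 ± 2.83. The ratio of CD55 to CD46 was 3.44 ± 0.226 in siCtrl, 1.80 ± 0.00889 with LIMp27 siRNA1 and 1.29 ± 0.0970 with LIMp27 siRNA2. The ratio of CD59 to CD46 was 3.42 ± 0.168 in siCtrl, 3.48 ± 0.185 with LIMp27 siRNA1 and 2.06 ± 0.0975 with LIMp27 siRNA2. Thus CD59 and CD46 kept their proportion with LIMp27 siRNA1 within the spread of the libraries, and CD46 stood nearer to both GPI-anchored regulators with LIMp27 siRNA2. The ratio of CD55 to C4BPB was 5.52 ± 0.122 in siCtrl, 12.4 ± 0.0246 with LIMp27 siRNA1 and 5.64 ± 0.371 with LIMp27 siRNA2.

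C3 and CFB, the substrate and the enzyme of the alternative pathway, were near 0. C3 (chr19:6677704-6730562, minus strand) had 0, 0 and 1 reads in siCtrl, 2, 0 and 1 with LIMp27 siRNA1, and 0, 0 and 2 with LIMp27 siRNA2. CFB (chr6:31945650-31952084, plus strand) had 0 reads in each siCtrl library, no row in the table for LIMp27 siRNA1, and 2, 0 and 1 reads with LIMp27 siRNA2. Of the 54350675 siCtrl reads, the 1 read of C3 allows up to 5.57 (95% exact Poisson interval), and the 0 reads of CFB allow up to 3.69 by the same interval. No difference in C3 or CFB was detectable at this depth. The genes that code for the proteins being regulated were barely read in these cells, whereas CD55 and CD59 ranked 392 and 393 among 25159 genes by siCtrl FPKM. Intervals cover counting error only. A same-strand gene that overlaps C3 by 649 bases had 470 to 790 reads per library, and C2 overlaps CFB by 23 bases. How reads in shared bases were assigned is not given in the sources used here.

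The other 55 complement genes gave a mixed picture. This list and those below were chosen with earlier results of these data known. Their counts and p-values describe the lists and are not independent tests. Of the 55 genes, 31 were listed and 24 were not. Of the listed genes, 23 never had enough reads to be tested, with at most 13 reads in a library (C2). C4A and C4B, near-identical copies whose reads can be divided wrongly between them, had 0 to 9 and 0 to 5 reads. At an edgeR adjusted p below 0.05, 2 rose and 2 fell of 8 tested with LIMp27 siRNA1, where 26.5% of all tested genes rose and 28.3% fell. With LIMp27 siRNA2, 2 rose and 1 fell of 7, beside 27.7% and 29.0% of all tested genes. Between the siRNAs, 4 were higher and 1 lower with LIMp27 siRNA2 of 8 tested, beside 23.1% and 22.4%. Of these calls, 1 of the 2 rises with LIMp27 siRNA1 and the 1 lower between the siRNAs were CSMD3. That gene passed the filter only through its LIMp27 siRNA1 libraries. The median log2 fold change was −0.13, 0.28 and 0.19 in the 3 comparisons. The 1 fall with LIMp27 siRNA2 became 2 without siCtrl replicate 1, siCtrl replicate 3 or LIMp27 siRNA2 replicate 2, and the 4 higher between the siRNAs became 1 without LIMp27 siRNA1 replicate 3. The same threshold in the same comparisons was passed by 54.8%, 56.7% and 45.4% of all tested genes in either direction.

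C1RL, a protease related to C1r, rose with both siRNAs. It had 116, 137 and 140 reads in siCtrl, 285, 353 and 339 with LIMp27 siRNA1, and 445, 310 and 297 with LIMp27 siRNA2. The rise was 1.16 (SE 0.11, edgeR adjusted p = 6.01e-10) with LIMp27 siRNA1 and 1.46 (SE 0.11, adjusted p = 5.16e-12) with LIMp27 siRNA2. C1QBP, a mainly mitochondrial protein that binds the heads of C1q, fell by 0.34 (adjusted p = 4.67e-08) and by 0.22 (adjusted p = 0.000254). CFD, the protease that activates factor B, fell with LIMp27 siRNA1 by 0.90 (SE 0.23, adjusted p = 0.00124) and was at −0.53 (SE 0.23, adjusted p = 0.0518) with LIMp27 siRNA2, from 50 to 67 reads per siCtrl library. The latter passed with 1 fit over 9 libraries and without siCtrl replicate 1, siCtrl replicate 3 or LIMp27 siRNA2 replicate 2. CLU, a secreted chaperone that also holds back the terminal complex, was at 0.03 (adjusted p = 0.618) with LIMp27 siRNA1 and rose by 0.28 (adjusted p = 0.00021) with LIMp27 siRNA2. It differed between the siRNAs by 0.26 (adjusted p = 0.000588), and without TMM it passed with LIMp27 siRNA1 too (0.13).

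The remaining tested genes had few reads. C5, the source of the terminal pathway, had 12 to 27 reads per library and passed the test only between the siRNAs (1.05 higher with LIMp27 siRNA2, SE 0.34, adjusted p = 0.0105), with −0.34 (adjusted p = 0.454) and 0.71 (adjusted p = 0.0729) against siCtrl. That call was lost without LIMp27 siRNA1 replicate 3 or LIMp27 siRNA2 replicate 3, and without TMM the difference of LIMp27 siRNA2 from siCtrl passed (0.79). Properdin, encoded by CFP, was at 0.46 (adjusted p = 0.245) and 0.39 (adjusted p = 0.346). CSMD3, a large membrane protein with complement control domains, had 1 to 4 reads in siCtrl, 11 to 23 with LIMp27 siRNA1 and 0 to 2 with LIMp27 siRNA2. CSMD3 passed the filter only through the LIMp27 siRNA1 libraries, the group where it was high, so a fall could not have been tested. Its difference of 2.35 (SE 0.52) with LIMp27 siRNA1 is therefore a description, and it was not tested with LIMp27 siRNA2 against siCtrl.

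**Figure D2:**
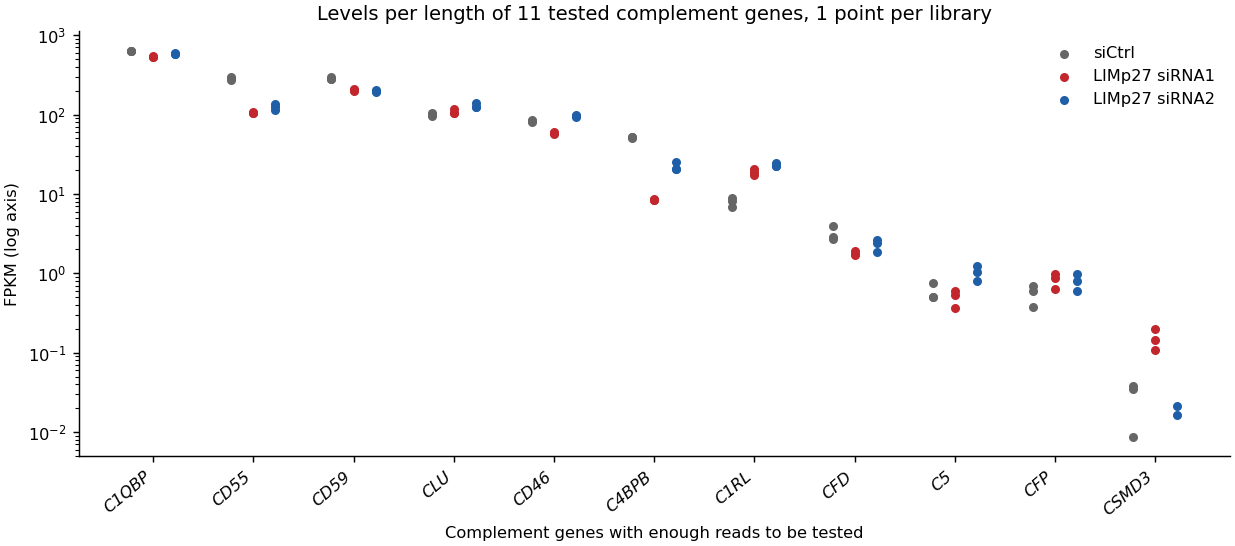
Authors' FPKM values on a log axis for 11 complement genes with enough reads to be tested with LIMp27 siRNA1, 1 point per library and 1 color per siRNA, ordered by the siCtrl mean. C1QBP, CD55 and CD59 lead, C1RL rose with both siRNAs, and 1 value of 0 (CSMD3, LIMp27 siRNA2) is not drawn.

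The neighbours on chromosome 1 were examined because CD46, CD55 and C4BPB lie in 1 stretch. Within 500 kb of the stretch from C4BPB to CD46, 18 other genes were listed and 9 were tested. With LIMp27 siRNA1, 5 fell and 0 rose at an adjusted p below 0.05 in edgeR, and with LIMp27 siRNA2 6 fell and 0 rose, while the background was 28.3% and 29.0% of all tested genes falling. The 0 rises of 9 stand beside 26.5% and 27.7% of all tested genes rising, and there were also 0 at an unadjusted p below 0.05 and 0 by DESeq2. Without TMM EIF2D rose with LIMp27 siRNA2 (0.16, edgeR adjusted p = 0.0404), and without the filter on low counts PIGR and AL591846.1 did, on at most 13 and 6 reads per library. The neighbours' median log2 fold change was −0.30 with LIMp27 siRNA1 and −0.75 with LIMp27 siRNA2. Of the 9, 4 fell with both siRNAs, a count given as a description because the all-gene share falling with both was not computed.

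On the C4BPB side, the 3 nearest tested genes all fell with both. C1orf116 had 1624, 1660 and 1690 reads in siCtrl, 650, 794 and 920 with LIMp27 siRNA1, and 1084, 891 and 867 with LIMp27 siRNA2. It fell by 1.24 (SE 0.06, adjusted p = 3.48e-17) and by 0.75 (SE 0.06, adjusted p = 2.51e-11). Between the siRNAs, C1orf116 was 0.49 higher with LIMp27 siRNA2 (edgeR adjusted p = 2.78e-07). YOD1, a deubiquitinase, fell by 0.97 (SE 0.07, adjusted p = 4.88e-13) and by 0.93 (SE 0.08, adjusted p = 1.61e-11). PFKFB2, which sets the level of a glycolytic signal, fell by 0.63 (adjusted p = 7.06e-08) and by 0.74 (adjusted p = 3.44e-08). YOD1 lies within PFKFB2 on the opposite strand, and the labels call the libraries strand-specific, but the counting setting is not given in the sources used here.

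Farther out, some genes fell with only 1 of the siRNAs, while PLXNA2 fell with both. MAPKAPK2, a kinase below p38, had 1778, 1692 and 1780 reads in siCtrl, 1595, 1935 and 2238 with LIMp27 siRNA1, and 867, 667 and 576 with LIMp27 siRNA2. It was at −0.03 (SE 0.05, adjusted p = 0.665) with LIMp27 siRNA1 and fell by 1.27 (SE 0.06, adjusted p = 2.87e-16) with LIMp27 siRNA2, and the siRNAs differed by −1.23 (adjusted p = 2.41e-16). RASSF5 was at −0.30 (adjusted p = 0.247) and fell by 1.37 (SE 0.27, adjusted p = 0.000106), on 15 to 82 reads per library. EIF2D fell by 0.16 (adjusted p = 0.0277), which did not pass under DESeq2, without TMM or without siCtrl replicate 2 or 3 or LIMp27 siRNA1 replicate 1 or 2, and was at 0.08 (adjusted p = 0.343). On the CD46 side, PLXNA2, a semaphorin receptor, fell by 0.56 (adjusted p = 7.92e-10) and by 0.46 (adjusted p = 7.07e-07), whereas MIR29B2CHG, next to CD46, had 9 to 34 reads and was at −0.08 (adjusted p = 0.871) and 0.42 (adjusted p = 0.343). DYRK3, with 2 to 19 reads, was at 0.06 (adjusted p = 0.901) and −1.18 (adjusted p = 0.0533), the latter passing with the replicate block, with 1 fit over 9 libraries and without siCtrl replicate 1 or LIMp27 siRNA2 replicate 1.

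**Figure D3:**
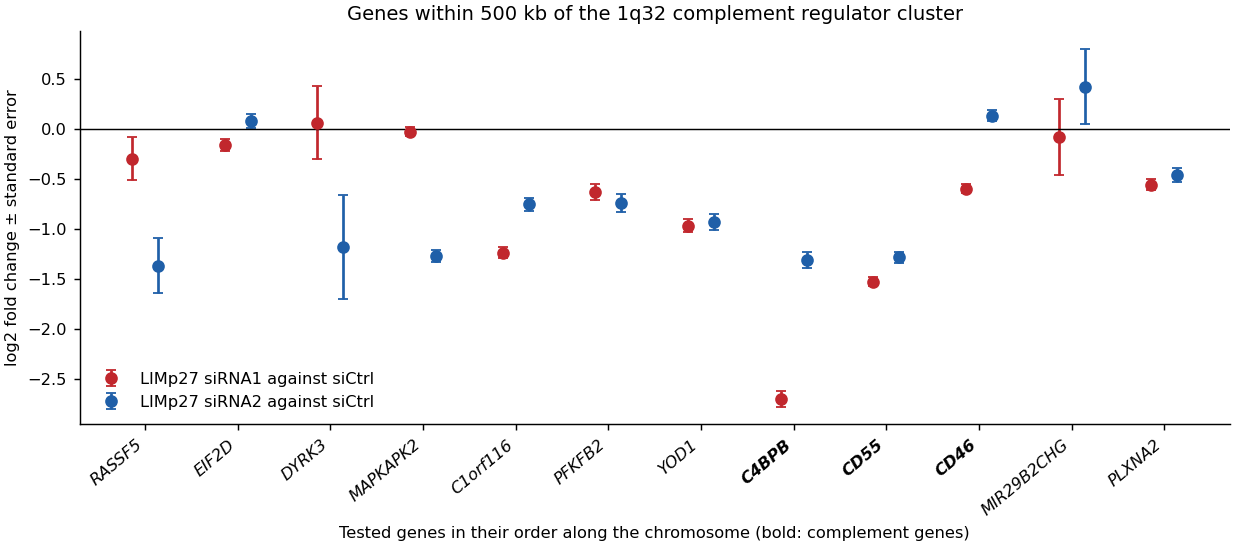
Log2 fold change against siCtrl with its standard error for the 12 tested genes within 500 kb of the C4BPB to CD46 stretch, in chromosomal order but not to distance. The 3 complement genes have bold names. C4BPB reached −2.70 with LIMp27 siRNA1, and MAPKAPK2 was at −0.03 with LIMp27 siRNA1 and −1.27 with LIMp27 siRNA2.

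CD55 and CD59 reach the surface on a GPI anchor, so the 29 genes for making, attaching and remodelling that anchor were listed. All but PIGY had a row, and all 28 were tested. With LIMp27 siRNA1, 14 rose and 3 fell, and with LIMp27 siRNA2, 13 rose and 5 fell, with medians of 0.23 and 0.21, beside the same all-gene shares as above. With library totals as the scale, 17 rose and 1 fell with LIMp27 siRNA1 and 16 rose and 3 fell with LIMp27 siRNA2. On that scale 4974 of all 14347 tested genes rose and 3017 fell with LIMp27 siRNA1. With LIMp27 siRNA2, 4976 of 14204 rose and 3362 fell. Of the 28, 9 rose with both siRNAs, 1 fell with both (PIGG), and 4 moved in opposite directions. The all-gene shares for such joint calls were not computed, and both siRNAs were set against the same siCtrl libraries. These joint counts are therefore a description only. The falls with LIMp27 siRNA1 numbered 1 when siCtrl replicate 1 or siCtrl replicate 2 was left out, and those with LIMp27 siRNA2 numbered 3 without LIMp27 siRNA2 replicate 1.

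Among the anchor genes that changed in the same direction with both siRNAs were DPM3, GPAA1, PIGU and PIGG. DPM3, a subunit of the enzyme that makes dolichol-phosphate mannose, had 187, 210 and 164 reads in siCtrl, 423, 428 and 585 with LIMp27 siRNA1, and 335, 290 and 202 with LIMp27 siRNA2. It rose by 1.19 (SE 0.10, adjusted p = 4.68e-11) and by 0.60 (SE 0.12, adjusted p = 0.00014). GPAA1, a subunit of the transamidase that joins the anchor to a protein, rose by 0.60 (SE 0.05, adjusted p = 6.96e-11) and by 0.76 (SE 0.07, adjusted p = 3.55e-10). PIGU, of the same complex, rose by 0.48 (adjusted p = 5.67e-08) and by 0.29 (adjusted p = 0.000701), whereas PIGG, which modifies the second mannose, fell by 0.48 (adjusted p = 2.78e-08) and by 0.18 (adjusted p = 0.0255). The smaller fall of PIGG did not pass without TMM, nor without siCtrl replicate 2 or LIMp27 siRNA2 replicate 1.

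The 4 genes that moved in opposite directions were PIGW, PIGT, PIGO and PIGM. PIGW, an acyltransferase of the early pathway, had 853, 772 and 831 reads in siCtrl, 1033, 1235 and 1350 with LIMp27 siRNA1, and 555, 422 and 423 with LIMp27 siRNA2. It rose by 0.40 (SE 0.06, adjusted p = 4.09e-07) with LIMp27 siRNA1 and fell by 0.76 (SE 0.07, adjusted p = 4.07e-10) with LIMp27 siRNA2. PIGT, a transamidase subunit, rose by 0.26 (adjusted p = 2.63e-05) and fell by 0.51 (adjusted p = 1.16e-08). PIGO, which adds ethanolamine phosphate, rose by 0.28 (adjusted p = 0.000213) and fell by 0.44 (adjusted p = 1.07e-05), and PIGM, the first mannosyltransferase, rose by 0.55 (adjusted p = 1.01e-06) and fell by 0.27 (adjusted p = 0.041), a fall that did not pass under DESeq2 or without TMM, nor without siCtrl replicate 1 or 3 or LIMp27 siRNA2 replicate 1 or 3.

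Transcription factors tied to complement genes in the literature on inflammation and liver formed the last list, of 15, of which NR1H4 had no row and 14 were tested. This list too was chosen with earlier results of these data known. With LIMp27 siRNA1, 12 fell and 2 rose, and with LIMp27 siRNA2, 9 fell and 3 rose, with medians of −0.30 and −0.25. The all-gene shares falling were 28.3% and 29.0%, and those rising were 26.5% and 27.7%. With library totals as the scale, 3017 of all 14347 tested genes fell and 4974 rose with LIMp27 siRNA1. With LIMp27 siRNA2, 3362 of 14204 fell and 4976 rose. On that scale 8 factors fell and 2 rose with LIMp27 siRNA1, and 7 fell and 4 rose with LIMp27 siRNA2. Between the siRNAs, 7 were higher with LIMp27 siRNA2 and 2 were lower, beside 23.1% and 22.4% of all tested genes, and the 2 became 0 without LIMp27 siRNA1 replicate 3 and 1 without any other single library.

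CEBPA, a liver and epithelial factor, fell furthest in this list, from 656, 545 and 550 reads in siCtrl to 308, 311 and 401 with LIMp27 siRNA1 and 308, 238 and 193 with LIMp27 siRNA2. The log2 fold change was −0.94 (SE 0.08, adjusted p = 5.91e-11) and −1.20 (SE 0.09, adjusted p = 7.77e-12). IRF1, which answers interferon, fell by 0.65 (adjusted p = 2.05e-09) and by 0.77 (adjusted p = 7.3e-10). HNF4A, which drives hepatic and intestinal genes, fell by 0.81 (adjusted p = 6.43e-11) and by 0.29 (adjusted p = 0.00229). Of the NF-kappa B subunits, NFKB2 fell by 0.50 (adjusted p = 8.23e-10) and 0.36 (adjusted p = 5.26e-06), and RELA by 0.31 (adjusted p = 1.72e-06) and 0.25 (adjusted p = 0.000229). RELB fell by 0.25 with both (adjusted p = 0.00288 and 0.00491), and REL by 0.39 (adjusted p = 0.0357) and 0.65 (adjusted p = 0.00202). Without TMM neither RELB fall passed, and that with LIMp27 siRNA2 was also lost without LIMp27 siRNA2 replicate 1. The smaller REL fall passed neither without TMM, nor by DESeq2, nor without any 1 library other than LIMp27 siRNA1 replicate 2.

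NFKB1 was among the 7 factors called higher with LIMp27 siRNA2 than with LIMp27 siRNA1. It fell by 0.64 (SE 0.06, adjusted p = 7.38e-10) with LIMp27 siRNA1, was at 0.11 (SE 0.07, adjusted p = 0.177) with LIMp27 siRNA2, and was 0.76 higher with LIMp27 siRNA2 than with LIMp27 siRNA1 (adjusted p = 1.83e-10). Without TMM it passed as higher with LIMp27 siRNA2 (0.20). CEBPD, an acute-phase factor, rose by 0.41 (adjusted p = 3.7e-05) and by 0.77 (adjusted p = 8.18e-08). STAT3, which carries the interleukin-6 signal, rose by 0.12 (adjusted p = 0.0398) and by 0.52 (adjusted p = 1.47e-08), and the first of these did not pass under DESeq2, without the filter, with 1 fit over 9 libraries, or without siCtrl replicate 1 or 3 or LIMp27 siRNA1 replicate 2 or 3. SP1 fell by 0.26 (adjusted p = 2.04e-05) and 0.45 (adjusted p = 1.54e-07), and CEBPB fell by 0.18 (adjusted p = 0.00324) and was at 0.03 (adjusted p = 0.681). The fall of CEBPB did not pass without TMM or without siCtrl replicate 1. Whether any of these factors acts on the complement genes was not tested.

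**Figure D4:**
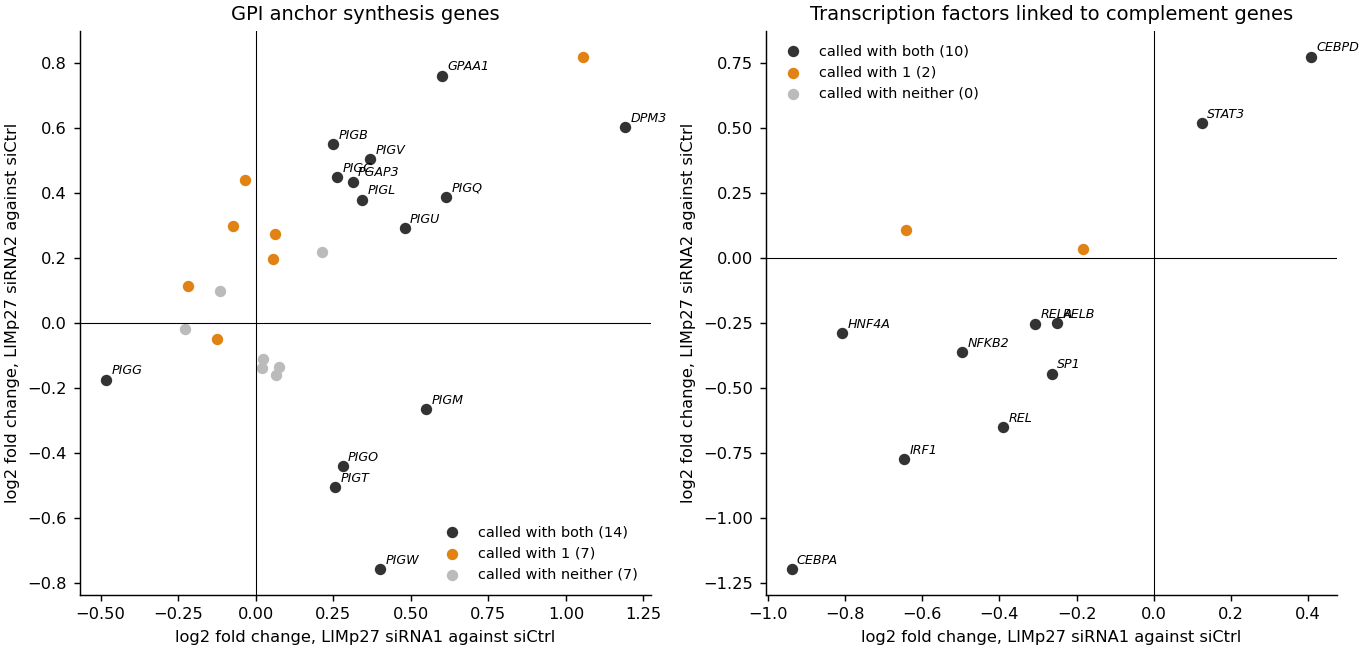
Log2 fold change with LIMp27 siRNA2 against that with LIMp27 siRNA1, both against the same siCtrl libraries, for 28 GPI anchor genes (left) and 12 transcription factors (right). Color gives whether a gene passed an adjusted p of 0.05 with both siRNAs, with 1 or with neither. Of the anchor genes, 14 passed with both and PIGW, PIGT, PIGO and PIGM sit in the lower right, and of the factors 10 passed with both, CEBPA lowest and CEBPD highest on both axes. The all-gene share passing with both was not computed, while 54.8% and 56.7% of all tested genes passed with each siRNA alone.

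Genes whose levels ran closest to each regulator were found by the root mean square difference, over the 9 libraries, of log2 CPM centred on the siCtrl mean, among 10288 genes. CD59 had close companions in TUBGCP4 (0.0465), TOPBP1 (0.0467) and PUM3 (0.0490), which code for a gamma-tubulin complex subunit, a DNA replication and repair scaffold and an RNA-binding protein. CD46 ran nearest to DDR1 (0.0685), a collagen receptor, CTNNA1 (0.0686), the alpha-catenin of cell junctions, and CAST (0.0694), an inhibitor of calpain. DDR1 stood at −0.54 with LIMp27 siRNA1 and 0.12 with LIMp27 siRNA2, beside −0.60 and 0.13 for CD46. The nearest genes to CD55 were IL1RAP (0.123), JPH1 (0.157) and EPS8L3 (0.159), with EPS8L3 at −1.53 and −1.28, the values of CD55 to 2 decimals. C4BPB had no gene as near, since FRMD6 (0.307), LOXL4 (0.312) and PHLDB2 (0.374) came first, and PHLDB2 stood at −2.46 and −0.77 beside −2.70 and −1.31. C4BPB had the fewest reads of these regulators and, with LIMp27 siRNA1, the largest difference, and both can widen this measure. These genes were picked for their likeness, so the measure is a description.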

How the data were processed

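Total RNA was sequenced from strand-specific libraries, as the labels state. The authors deposited 1 table per LIMp27 siRNA with raw read counts, their own counts divided by a size factor (a signal) and FPKM per gene. The submitters' notes name CASAVA and GRCh38, and the aligner and counter are not given in the sources used here. The deposited fold changes and p-values were not used. Libraries held 14361629 to 21524623 reads. A gene absent from a table was set to 0 there. Counts were fitted with edgeR 4.0.16 (TMM, filterByExpr with a minimum count of 10, quasi-likelihood test, Benjamini-Hochberg over all tested genes, threshold 0.05) in R 4.3.3, each comparison on its 6 libraries. SE is the log2 fold change divided by the root of F. FPKM served levels between genes, and the signal only a check. The fit was tested on simulated data. Alternatives were RLE, DESeq2 1.42.0, no filter, a replicate block, 1 fit over 9 libraries, leaving out each library and, added after seeing the data, no TMM. The 8 genes and all lists were chosen with earlier results of these data known. A few tested genes of the lists, included in the counts, are not reported here by name. Otherwise, named are these 8, every tested gene of the complement, transcription factor and 500 kb neighbour lists, up to 4 called anchor genes per comparison by adjusted p, and 3 genes of nearest pattern per regulator.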

Additional observations from a re-analysis of the deposited data

Results flagged for a closer look

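CD46 moved one way in every library of each siRNA. Its LIMp27 siRNA1 libraries were all below siCtrl and its LIMp27 siRNA2 libraries all above, the nearest by 212 against 210 CPM. With LIMp27 siRNA2 its log2 fold change was 0.13, and the 95% interval of −0.01 to 0.28 includes no change. That interval rests on the 6 libraries alone and is wider than edgeR's test, which also draws on other genes, would give. Of all tested genes, 31.9% lay below the siCtrl range with LIMp27 siRNA1 and 28.6% above it with LIMp27 siRNA2. Between the siRNAs, CD46 differed by 0.74 on the log2 scale. That difference was not tested, since CD46 was chosen with its values known.

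Opposite changes with the siRNAs at an adjusted p below 0.05, and a difference between them by edgeR's quasi-likelihood test, were found for 4 GPI anchor genes. The share of all tested genes with such opposite calls was not computed. Singly, 54.8% and 56.7% passed against siCtrl and 45.4% between the siRNAs. The fall of PIGM with LIMp27 siRNA2 did not pass under DESeq2, without TMM or without some single libraries. LIMp27 siRNA2 was below LIMp27 siRNA1 by −1.15 for PIGW (adjusted p = 7.5e-15), −0.75 for PIGT (adjusted p = 1.38e-12), −0.71 for PIGO (adjusted p = 9.13e-10) and −0.81 for PIGM (adjusted p = 3.85e-08) on the log2 scale. The cause was not tested.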

How the results depend on the processing

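The 12 log2 fold changes of the 4 regulators moved by less than the spread between libraries under RLE, DESeq2, no filter, the replicate block, 1 fit over 9 libraries and every omission of 1 library. CD59 between the siRNAs, near 0 throughout, ran from −0.05 to 0.01. Without TMM, a choice added after seeing the data, 6 moved by more, to −2.60 (C4BPB), −1.43 (CD55), −0.50 (CD46) and −0.48 (CD59) with LIMp27 siRNA1 and 0.22 (CD46) and −0.51 (CD59) with LIMp27 siRNA2, and GPI anchor genes that fell numbered 1 and 3 in place of 3 and 5. Over all tested genes the falls numbered 3017 and 3362 in place of 4066 and 4120. Chromosome 1 neighbours that rose with LIMp27 siRNA2 went from 0 to 1 without TMM and to 2 without the filter. Transcription factors that rose with LIMp27 siRNA1 went from 2 to 1 under DESeq2, without the filter, with 1 fit over 9 libraries and, over single omissions, ranged from 1 to 2. Other complement genes that fell with LIMp27 siRNA2 went from 1 to 2 with 1 fit over 9 libraries and ranged from 1 to 2 over omissions, 2 without siCtrl replicate 1, siCtrl replicate 3 or LIMp27 siRNA2 replicate 2. Anchor genes that fell ranged from 1 to 3 with LIMp27 siRNA1 and from 3 to 5 with LIMp27 siRNA2, the 3 coming without LIMp27 siRNA2 replicate 1. Between the siRNAs, other complement genes lower with LIMp27 siRNA2 went from 1 to 2 without the filter, and factors lower from 2 to 1 under DESeq2. Over omissions, other complement genes higher ranged from 1 to 4, anchor genes higher from 5 to 8, factors lower from 0 to 1 and neighbours lower from 1 to 3, and 1, 5, 0 and 1 came without LIMp27 siRNA1 replicate 3. The cause was not tested. All other counts stayed within 1.5 times. The same replicate numbers did not pair the libraries (correlations of deviations −0.0853 to 0.0315), and with the replicate block all 12 values and 24 counts stayed the same in this sense. Of 176 differences of single listed genes, none changed sign where it was called, and the number that lost the call was 1 under RLE, 12 under DESeq2, 4 without the filter, 3 with the block, 3 with 1 fit and 14 without TMM, and 86 of 1056 values over omissions of 1 library. C3, CFB and C4BPA, with at most 3 reads per library, are limited by depth.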
